A study of Caenorhabditis elegans with 25 samples.

Results

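Male germlines of the him-8 strain were compared with male germlines of wild-type N2 worms. This took 6 of the 25 RNA libraries of the series, chosen by their labels: 4 him-8 male germlines (replicates 1 to 4) and 2 N2 male germlines (replicates 1 and 2). The him-8 males were of strain CB1489, homozygous for him-8(e1489), and came from him-8 hermaphrodites. The N2 males carried no mutation and came from matings of N2 hermaphrodites with N2 males, so that genotype and the way the males were produced cannot be told apart. All males were XO, were grown at 20 °C on OP50 bacteria and were dissected on day 1 of adulthood. Each library was a pool of distal gonad arms severed where late-pachytene germ cells reach the gonad bend, so it held mitotic and meiotic germ cells. Total RNA was depleted of ribosomal RNA and sequenced. The comparison asks what the male-producing him-8 background changes within one sex.

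HIM-8 is a zinc-finger protein that binds the pairing center of the X chromosome and is needed for the X chromosomes of hermaphrodites to find each other and synapse in meiosis. Without it the X chromosomes often fail to disjoin, and many self-progeny are males, which is why him-8 strains serve as a source of males. ZIM-1, ZIM-2 and ZIM-3 are related proteins that do the same work for the autosomes. In males the single X chromosome has no partner to pair with, and X-linked genes are for the most part silent in germ cells.

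The libraries differed in ways that do not follow the strains, and him-8 replicate 2 stood apart. Gene counts were 3263959, 1849544, 5030360 and 4675567 in him-8 replicates 1 to 4, and 2538459 and 2438772 in N2 replicates 1 and 2. Muscle transcripts, summed over 20 genes of the contractile apparatus, reached 443, 5294, 449 and 425 counts per 1000000 gene counts (CPM) in the 4 him-8 libraries in the same order, against 2648 and 891 CPM in the N2 libraries. Replicate 2 was the highest of all 6 libraries, and the other 3 him-8 libraries were below both N2 libraries. Intestine transcripts (15 genes) had the same order, with 32.8, 656, 56.5 and 71.4 CPM in him-8 and 321 and 118 CPM in N2 germlines. Hypodermis transcripts (12 genes of the skin and its cuticle) were at 116, 1765, 112 and 53.5 CPM in him-8 and at 716 and 225 CPM in N2 germlines. Of the defining markers, the muscle myosin gene unc-54 was at 60.7, 971, 51.7 and 41.3 CPM in him-8 and at 598 and 190 CPM in N2 germlines. Two-sided exact permutation tests on the muscle, intestine, hypodermis, neuron and somatic gonad sums gave p between 0.267 and 0.933, each with an adjusted p of 0.933 over the 5 lists, where 4 against 2 libraries cannot give less than 0.133. Transcripts of spermatogenesis were abundant in every library: 31 genes of the major sperm protein (MSP), which drives the crawling of sperm, summed to 35468 to 65364 CPM in him-8 and to 40119 to 58659 CPM in N2 germlines.

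**Figure D1:**
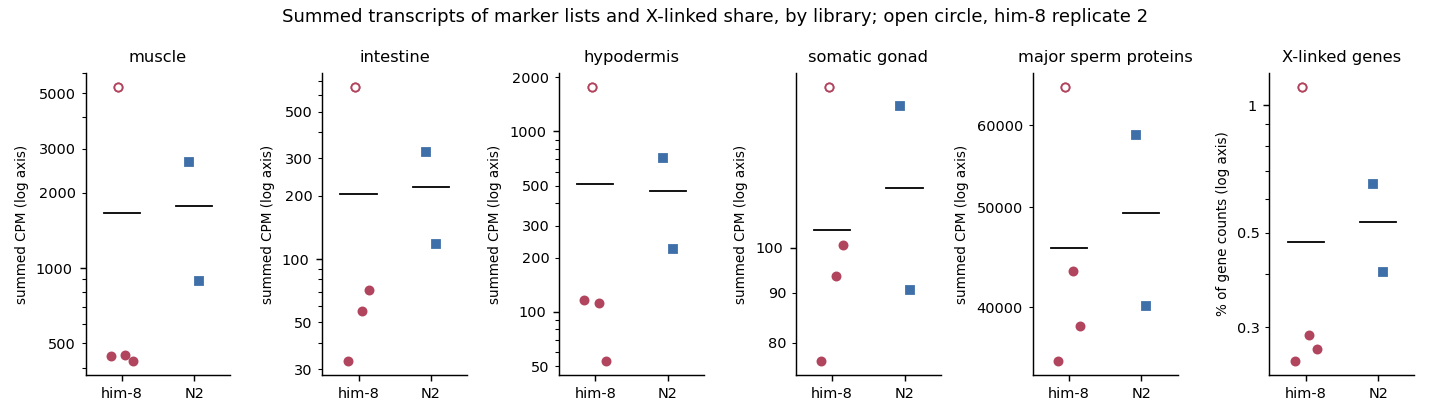
Summed CPM of 5 gene lists and the share of gene counts from X-linked genes (log axes), with 1 point for each of the 4 him-8 (left) and 2 N2 (right) male germline libraries and black lines at the group means. The open circle, him-8 replicate 2, is the highest in every panel; for muscle, intestine, hypodermis and X-linked genes the other 3 him-8 libraries lie below both N2 libraries.

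The deposited names carry tags of unstated meaning. N2 replicate 1 and him-8 replicates 1 and 2 share a tag, him-8 replicates 3 and 4 share another, and N2 replicate 2 has one of its own. Across genes, log2 CPM of him-8 replicate 2 correlated best with N2 replicate 1 (r = 0.949) and less with the other him-8 libraries (r = 0.852 to 0.866). N2 replicate 2 correlated best with him-8 replicate 4 (r = 0.967). Results that rest on him-8 replicate 2 are therefore given with and without it.

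With all 6 libraries, edgeR tested 8303 genes and called 0 higher and 0 lower in him-8 germlines (0% in each direction) at an adjusted p under 0.05. At an unadjusted p under 0.05 there were 134 genes higher and 98 lower (1.61% and 1.18%), and the smallest adjusted p was 0.195, for tsn-1. DESeq2 called 2 genes higher and 22 lower (0.0241% and 0.265% of the same 8303 genes), and limma with weighted libraries called 0 and 4. For some of these genes, him-8 and haf-6 among them, DESeq2 gave no adjusted p and so could not call them. The fold changes were bounded to a limited degree: the 95% interval lay within 1 log2 unit of no difference for 4820 genes and within 2 log2 units for 7011. For the other genes a larger difference could not be bounded. CPM of the 2 strains did not overlap for 745 genes that were higher in all 4 him-8 libraries (8.97%) and for 229 that were lower (2.76%). In these pooled gonads, fewer cells of a type and less RNA per cell cannot be told apart.

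The mutated gene itself, him-8 (T07G12.12, chromosome IV), was read at 15.0, 15.7, 22.1 and 22.03 CPM in him-8 germlines and at 9.85 and 10.3 CPM in N2 germlines. All 4 him-8 libraries were above both N2 libraries, with a log2 fold change of 0.82 ± 0.28 (SE; adjusted p = 1.00 and unadjusted p = 0.0212 in edgeR's quasi-likelihood test). The log2 fold change of the gene was 0.52 within the shared tag and 0.54 ± 0.32 with the tag as a term. The transcript was not depleted, so its level does not check the genotype labels. The neighbouring zim-1, zim-2 and zim-3 genes differed by less than their errors, with log2 fold changes of 0.12 ± 0.19, 0.15 ± 0.37 and 0.03 ± 0.33. Within the shared tag their log2 fold changes were -0.00041, -0.14 and 0.12. The groups overlapped for each of them, at 31.9 to 49.1 CPM in him-8 and 35.1 to 39.8 CPM in N2 germlines for zim-1, 15.7 to 45.1 and 25.2 to 32.4 CPM for zim-2, and 21.6 to 48.3 and 25.2 to 45.9 CPM for zim-3. Both zim-1 and zim-2 overlap other genes on their own strand, so their counts are uncertain.

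The gene with the most evidence for a difference was tsn-1 (F10G7.2, chromosome II), which encodes a Tudor staphylococcal nuclease of the RNA-induced silencing complex. It was at 99.6, 47.6, 91.8 and 120 CPM in him-8 germlines, against 551 and 818 CPM in N2 germlines. Every him-8 library was far below both N2 libraries, and replicate 2 was the lowest of all. The log2 fold change was -3.003 ± 0.30 (95% interval -3.72 to -2.29). Its edgeR adjusted p of 0.195 missed the threshold with all 6 libraries. Over 18 alternative fits the log2 fold change stayed between -3.30 and -2.75, and 6 of them called the gene, with adjusted p between 3.81e-17 and 1.00. Among libraries of the shared tag it was -3.04. Without him-8 replicate 2 it was -2.83 ± 0.19, with an edgeR adjusted p of 0.00683.

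C45G9.9 (chromosome III) was at 181, 161, 155 and 170 CPM in him-8 and at 453 and 355 CPM in N2 germlines. The groups were widely separated, and the log2 fold change was -1.36 ± 0.17 (edgeR adjusted p = 0.422; 6 of 18 alternative fits called it). The cGMP-dependent protein kinase gene egl-4 (chromosome IV) was at 114, 113, 106 and 93.3 CPM in him-8 and at 229 and 233 CPM in N2 germlines. Each strain was tight around its mean, and the log2 fold change was -1.19 ± 0.17 (edgeR adjusted p = 0.514; 5 of 18 alternatives called it). ZK892.4 (chromosome II) was at 6.13, 4.87, 5.57 and 6.63 CPM in him-8 and at 34.7 and 18.5 CPM in N2 germlines, with a log2 fold change of -2.28 ± 0.34. The groups did not overlap, and the N2 libraries differed more from each other than the him-8 libraries did. The lower set named by the same rule was completed by haf-6 (chromosome I), an ABC transporter needed for efficient RNA interference, and R105.1 (chromosome IV). They were at 6.13 to 10.3 and 161 to 216 CPM in him-8 germlines, against 21.3 to 41.8 and 311 to 345 CPM in N2 germlines. Both overlap a gene on the other strand, and the counting strand is not stated, so their counts are uncertain. Within the shared tag the log2 fold changes of C45G9.9, egl-4, ZK892.4, haf-6 and R105.1 were -1.53, -1.14, -2.77, -1.64 and -1.21.

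**Figure D2:**
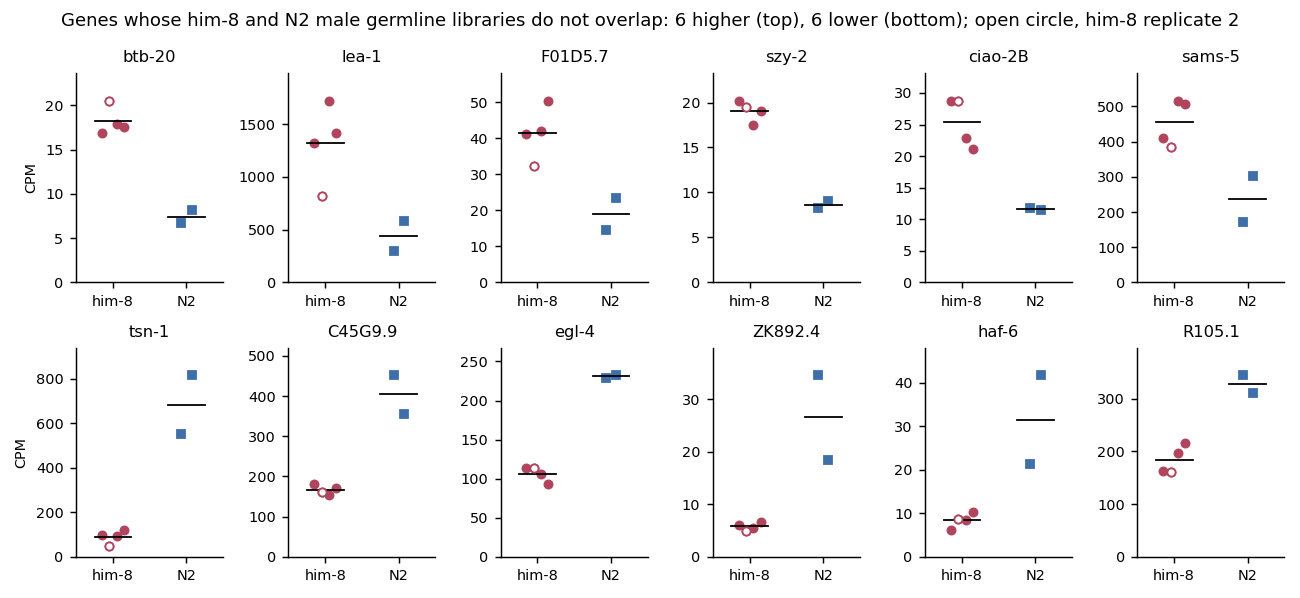
CPM of 12 genes in 4 him-8 (left, circles; open circle, replicate 2) and 2 N2 (right, squares) male germline libraries, with black lines at the group means. The libraries of the strains do not overlap for any of these genes, which were chosen for that, and tsn-1 has the widest gap, at 47.6 to 120 CPM in him-8 and 551 to 818 CPM in N2 germlines.

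These genes were followed in libraries that were not in the comparison. Mature sperm of the same him-8 strain (3 libraries) had been collected beside sperm of mes-3 males (3 libraries of strain SS818, whose mutated gene encodes a subunit of the worm Polycomb complex), all with one tag in their names. The edgeR test called 594 genes higher and 271 lower (7.05% and 3.22% of 8424; 13.3% and 10.1% at an unadjusted p under 0.05) in him-8 than in mes-3 sperm, and the 2 mutations cannot be told apart there. tsn-1 was at 72.7, 25.4 and 101 CPM in him-8 sperm and at 794, 836 and 649 CPM in mes-3 sperm, a log2 fold change of -3.26 ± 0.33 (edgeR adjusted p = 0.00121). C45G9.9 was at 156, 160 and 187 CPM in him-8 sperm and at 380, 360 and 435 CPM in mes-3 sperm, a log2 fold change of -0.95 ± 0.18 (edgeR adjusted p = 0.00557). Both were lower in every him-8 sperm library than in every mes-3 sperm library. Log2 fold changes in sperm were -3.02 for ZK892.4 and -3.20 for haf-6 (edgeR adjusted p of 0.0826 and 0.0761), where the lowest him-8 sperm libraries had 0 counts, and -0.31 for egl-4 and -0.13 for R105.1 (adjusted p of 0.428 and 0.824).

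The contrast of tsn-1 was not limited to the N2 libraries. It was at 1039 to 1128 CPM in mes-3 male germlines, at 1308 to 1322 CPM in fem-2 and at 1192 to 1462 CPM in N2 oogenic germlines. In oogenic germlines of mes-3 and fem-2 mutant offspring, labelled M+P- and M+P+ (2 libraries each), it was at 1144 to 1212 and 1186 to 1262 CPM. All 7 libraries of the him-8 strain, germline and sperm, thus lay at 25.4 to 120 CPM, below the remaining 18 libraries of the series. Among 7762 genes with a mean of at least 10 CPM, 4 shared this pattern: tsn-1, haf-6, and the oogenic transcripts Y54F10AM.11 and K06C4.2, which were at or under 2.05 CPM in all 6 male germlines of the comparison and were not tested there. The gap was narrow for haf-6. It was also low in mes-3 male germlines, at 11.3 to 14.9 CPM, against at most 10.3 CPM in him-8 and 21.3 to 41.8 CPM in N2 male germlines. Set against the 8 other male germline and sperm libraries alone, 7 of 7255 genes were lower in all him-8 libraries: tsn-1, C45G9.9, ZK892.4, haf-6, msrp-4, K08C9.1 and C27H5.2. Only Y45G5AM.3 was higher in all him-8 libraries, at 32.01 to 39.8 CPM in him-8 and 29.1 to 31.5 CPM in N2 male germlines, and a gene on the opposite strand shares its position. These lists were picked by their values and carry no test. The sperm libraries took part in that choice. For msrp-4, K08C9.1 and C27H5.2 the direction in the sperm test was thus fixed beforehand, and its p-values are not given. In the male germlines, msrp-4 was at 23.3 to 40.6 CPM in him-8 and 61.1 to 68.9 CPM in N2, and K08C9.1 at 46.3 to 68.1 CPM in him-8 and 111 to 116 CPM in N2.

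**Figure D3:**
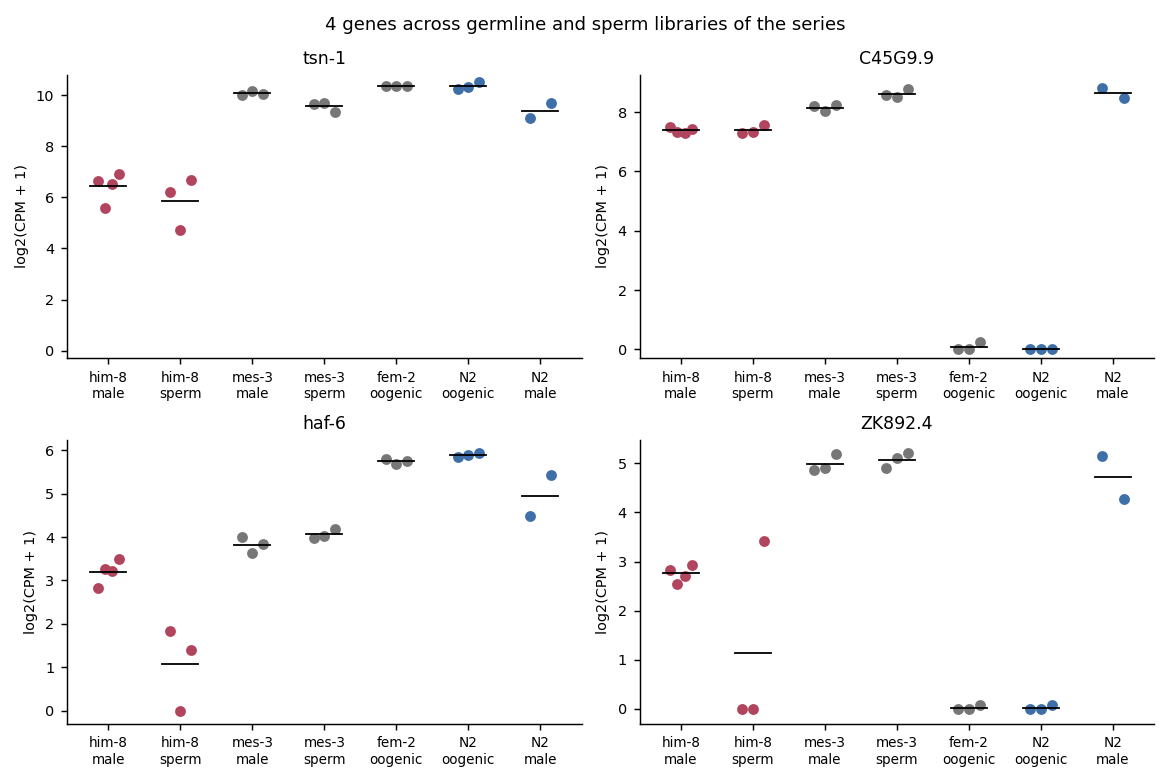
log2(CPM + 1) of tsn-1, C45G9.9, haf-6 and ZK892.4 in germline and sperm libraries, with black lines at the group means of the plotted values. tsn-1 is low in all 7 libraries of the him-8 strain and high in every other group; C45G9.9 and ZK892.4 are near 0 in oogenic germlines and lower in the him-8 libraries than in N2 and mes-3 male libraries.

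On the higher side 6 genes were named, with log2 fold changes between 0.88 and 1.52. lea-1 (chromosome V), whose product is a late embryogenesis abundant protein linked to tolerance of drying, was at 1321, 820, 1723 and 1418 CPM in him-8 germlines, against 299 and 577 CPM in N2 germlines. All him-8 libraries were above both N2 libraries, and the log2 fold change was 1.52 ± 0.35 (edgeR adjusted p = 1.00). DESeq2 called lea-1 (adjusted p = 0.00239), as did 2 other alternatives, but the gene overlaps others on both strands and its counts are uncertain. btb-20 (chromosome II), which encodes a BTB-domain protein, was at 16.9, 20.5, 17.9 and 17.5 CPM in him-8 and at 6.70 and 8.20 CPM in N2 germlines, a log2 fold change of 1.21 ± 0.27. In sperm its direction was the opposite, with 2.54, 1.02 and 1.95 CPM in him-8 and 15.8, 17.3 and 13.7 CPM in mes-3 libraries. The log2 fold change there was -2.78 (edgeR adjusted p = 0.0700).

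szy-2 (chromosome III), an inhibitor of protein phosphatase that acts on centrosome number, was at 17.5 to 20.2 CPM in him-8 and at 8.27 to 9.02 CPM in N2 germlines. ciao-2B (chromosome III), named after a human factor of iron-sulfur cluster assembly, was at 21.2 to 28.8 CPM in him-8 and 11.5 to 11.8 CPM in N2 germlines. sams-5 (chromosome IV), an S-adenosylmethionine synthetase, was at 384 to 517 CPM in him-8 and at 171 to 303 CPM in N2 germlines. With F01D5.7 (chromosome II), the log2 fold changes of these 4 genes were between 0.88 and 1.06. Each had an edgeR adjusted p of 1.00, and 0 of the 18 alternatives called any of them. DESeq2 gave no adjusted p for szy-2, ciao-2B and F01D5.7, so among the alternatives it could not call these genes. In sperm the log2 fold changes were -0.15, -0.50, 0.33 and 0.76 for szy-2, ciao-2B, sams-5 and F01D5.7, with adjusted p between 0.183 and 0.936. sip-1, a small heat shock protein gene, was with lea-1 the other higher call of DESeq2. It was at 820, 612, 430 and 308 CPM in him-8 and 189 and 110 CPM in N2 germlines (log2 fold change 1.78 ± 0.48 in edgeR, adjusted p = 1.00). Its position is shared by a gene of the opposite strand, so its counts are uncertain.

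Genes of the male programme tended to the lower side. Genes were classed by libraries outside the comparison, as male-biased where mes-3 male germlines had at least 4 times the CPM of the oogenic germlines (with 1 CPM added to both). Of the 98 genes lower at an unadjusted p under 0.05, 87 (88.8%) were male-biased, against 24.1% of the genes tested. Of the 134 higher genes, 8 were male-biased. Without him-8 replicate 2 the share was much smaller, at 219 of 630 lower genes (34.8%), against 24.9% of the genes tested, and 13 of the 60 called lower were male-biased. The median log2 fold change was -0.19 for 2003 male-biased genes, 0.10 for 482 oogenic-biased genes, 0.07 for the remaining 5818 and 0.02 for all genes. Of the 22 lower DESeq2 calls, 20 were under 1 CPM in all 6 oogenic libraries, as were 21.6% of the genes tested. The shift was small beside the spread of libraries. Relative to the N2 mean, the median of male-biased genes less that of the genes biased to neither sex was -0.45, -0.14, -0.21 and -0.21 in him-8 replicates 1 to 4, and 0.14 and -0.14 in the N2 libraries, so that the groups overlapped. The difference between the classes was -0.33 without him-8 replicate 2 and -0.10 without N2 replicate 1, in place of -0.26, and within the shared tag it was -0.47.

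The list of 35 sperm development genes (spe and fer genes, sperm phosphatases and sperm chromatin proteins) summed to 11444, 12750, 13301 and 13570 CPM in him-8 germlines, against 14476 and 14381 CPM in N2 germlines. The strains did not overlap. Of its 34 tested members 6 had a positive log2 fold change, against 4343 of all 8303 genes tested. The median was -0.24, against 0.02 for all genes. At the threshold 0 members were called, and 1 was lower at an unadjusted p under 0.05 (1.18% of all genes). With him-8 replicate 2 left out, the median was -0.20 and 4 of 35 members were lower at that p, against 7.79% of all genes. spe-51, which encodes a sperm protein needed for fertilization, had a log2 fold change of -0.54 ± 0.26. Of 31 MSP genes 2 had a positive log2 fold change, against 4343 of 8303 genes tested, and the MSP median was -0.15. Without him-8 replicate 2, which had the highest MSP sum, the median was -0.45, and 1 member, msp-152, was called lower. At an unadjusted p under 0.05, 5 were then lower, against 7.79% of all genes. The member with the most negative value was msp-152 (chromosome II), at 493, 852, 734 and 604 CPM in him-8 and 2082 and 1468 CPM in N2 germlines (log2 fold change -1.48 ± 0.29, edgeR adjusted p = 1.00). MSP genes are near-identical in sequence, so reads can be split among them and single members are uncertain. Of the 22 oogenesis genes 12 had a positive log2 fold change, near the share of all genes. Their median was 0.06, against 0.02 for all genes, and the smallest values were those of nos-2 (-0.35 ± 0.62) and mex-1 (-0.20 ± 0.28). At an unadjusted p under 0.05, 3 were higher (1.61% of all genes). The largest value was that of rme-2, the yolk receptor, at 211, 154, 230 and 216 CPM in him-8 and 92.97 and 142 CPM in N2 germlines. cpg-1, an eggshell proteoglycan gene, was at 250 to 361 CPM in him-8 and at 126 to 262 CPM in N2 germlines, which overlap. Their edgeR adjusted p was 1.00.

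With all 6 libraries no difference was detected for the meiotic machinery around HIM-8. Of 17 genes for the chromosome axis and the synaptonemal complex, 14 for pairing movement and checkpoint, and 30 for breaks and crossovers, 0 were called in either direction, and 0 passed an unadjusted p under 0.05. Their median log2 fold changes were 0.08, 0.04 and 0.09, against 0.02 for all genes. Without him-8 replicate 2 the medians were 0.17, 0.04 and 0.19, against 0.03 for all genes. Again 0 were called, and 1, 1 and 4 genes were higher at an unadjusted p under 0.05, against 2.52% of all genes. Summed axis and synapsis transcripts were at 2086, 1294, 1964 and 1966 CPM in him-8 and at 1590 and 1796 CPM in N2 germlines. Summed break and crossover transcripts were at 1779, 1171, 1744 and 1749 CPM in him-8 and at 1367 and 1536 CPM in N2 germlines. For both sums replicate 2 was the lowest of the 6 libraries, and the other 3 him-8 libraries were above both N2 libraries. At the extremes were syp-3, a central-region protein of the synaptonemal complex (log2 fold change 0.38 ± 0.28), and lab-1, which protects cohesion on the long arm of the bivalent (-0.38 ± 0.32). Among pairing genes the range ran from zyg-12, the nuclear envelope protein that couples chromosomes to the cytoskeleton (-0.34 ± 0.17), to chk-2, the kinase that starts pairing (0.45 ± 0.35). rfs-1, a RAD-51 paralog, and cosa-1, which marks crossover sites, had the highest values of their list, at 1.14 ± 0.50 and 0.73 ± 0.33. rfs-1 was at 8.27, 7.03, 14.5 and 13.05 CPM in him-8 and at 2.76 and 6.56 CPM in N2 germlines, without overlap but at low counts.

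The other germline lists also held 0 calls. Sex determination (20 genes tested) had a median of 0.03, with tra-3, a calpain protease of the feminizing pathway, at 1.03 ± 0.60 and fem-3, a masculinizing gene, at 0.51 ± 0.44. Stem cell genes (13) had a median of -0.11, between sygl-1, a target of germline Notch signalling (-0.49 ± 0.29), and fbf-1, a PUF-family RNA-binding protein (0.35 ± 0.23). Small RNA genes (22) had a median of 0.01, between alg-3, an Argonaute of spermatogenesis (-0.22 ± 0.19), and henn-1, the methyltransferase of small RNAs (0.40 ± 0.18). Chromatin, P granule and dosage compensation genes had medians of -0.06, 0.06 and -0.11, and of 0.17, 0.12 and -0.003 when him-8 replicate 2 was left out. Of 75 tested ribosomal protein genes 62 were positive, against 4343 of 8303 genes tested. They had a median of 0.17, and 2 were higher at an unadjusted p under 0.05 (1.61% of all genes). Their median was 0.02 once him-8 replicate 2 was left out, against 0.03 for all genes, with 1 higher and 2 lower at that p. The largest value was that of rpl-39, at 415, 699, 367 and 263 CPM in him-8 and 314 and 107 CPM in N2 germlines, which overlap. Histone genes (21) had a median of -0.07, or -0.27 without him-8 replicate 2, and his-16 had the largest value (0.91 ± 0.36).

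**Figure D4:**
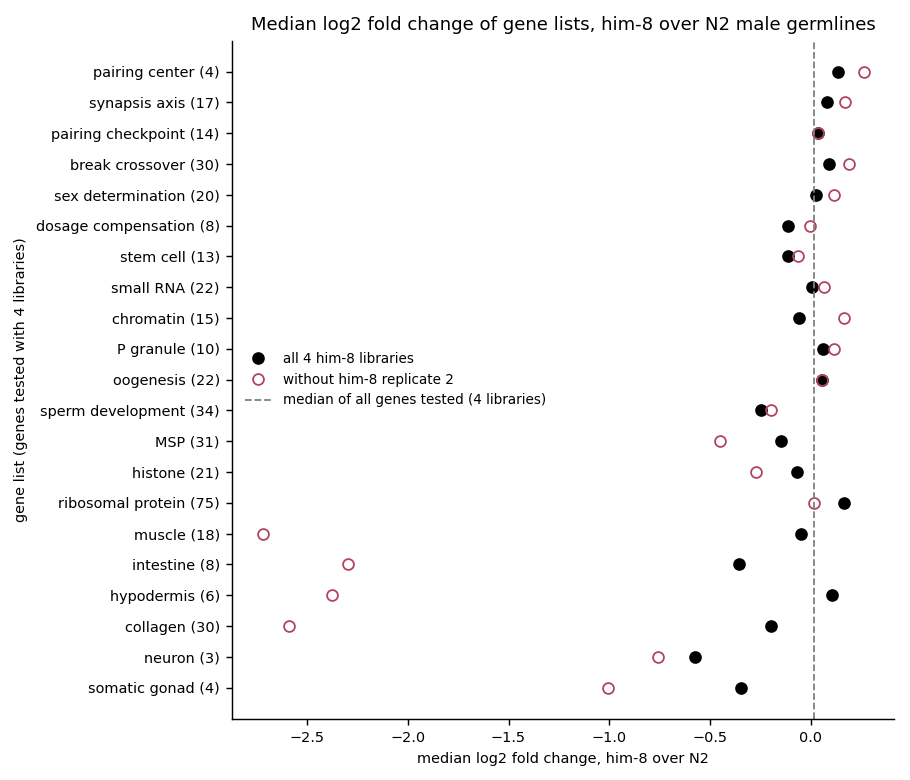
Median log2 fold change (him-8 over N2) of the tested members of 21 gene lists, with all 4 him-8 libraries (filled) and without him-8 replicate 2 (open); the dashed line is the median of all genes tested, 0.02. Germline lists lie between -0.45 (MSP) and 0.27 (pairing center) in both, and muscle, intestine, hypodermis and collagen lists move from -0.36 to 0.11 with replicate 2 to -2.72 to -2.30 without it.

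Leaving out him-8 replicate 2 gave a different picture. Of 8086 genes, edgeR then called 1 higher and 60 lower in him-8 than in N2 germlines (0.0124% and 0.742%), with 204 and 630 at an unadjusted p under 0.05 (2.52% and 7.79%). The 60 had log2 fold changes from -4.74 to -1.13, with a median of -2.91. With replicate 2 back in the fit the median of the same 60 genes was -0.78 and 5 had a positive sign. In replicate 2 itself, which had no part in these calls, 48 of the 60 genes were above both N2 libraries, 3 lay between them and 9 were below both. The same N2 libraries did take part in the calls. These positions were not counted over all genes tested, so the counts have no background to be set against. The call also needed the other libraries: it was 0 without him-8 replicate 1, 3 or 4, 1 lower without N2 replicate 1, and 17 higher and 294 lower without N2 replicate 2. Their somatic sums stand above: without replicate 2, him-8 germlines were at 425 to 449 CPM of muscle transcripts, against 891 to 2648 CPM in N2 germlines, and their part in the calls was not tested.

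Of the genes named among these 60, pmt-2 (chromosome V), a methyltransferase of phosphatidylcholine synthesis, was at 3.06, 3.78 and 2.99 CPM in him-8 replicates 1, 3 and 4 and at 27.2 and 24.6 CPM in N2 germlines. Replicate 2, at 82.2 CPM, was above all of them, and the log2 fold change without it was -3.09 ± 0.30 (edgeR adjusted p = 0.0342). dhs-28 (chromosome X), an enzyme of peroxisomal fatty acid oxidation, was at 1.53, 1.79 and 2.99 CPM, with 40.6 CPM in replicate 2, and at 23.2 and 18.04 CPM in N2 germlines. cpr-6 (chromosome X), a cathepsin B-like protease, was at 1.99 to 2.76 CPM, with 47.6 CPM in replicate 2, against 37.0 and 17.2 CPM in N2 germlines. irg-7 (chromosome X), an infection response gene, was at 2.35 to 3.38 CPM, with 49.2 CPM in replicate 2, against 24.0 and 17.2 CPM in N2 germlines.

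The same pattern held for pud-1.2 and gfi-1 (chromosome V) and F46H5.3 (chromosome X). pud-1.2 was at 10.9 to 12.9 CPM, with 421 CPM in replicate 2, against 127 and 62.7 CPM in N2 germlines, and it is near-identical to its neighbour pud-1.1. gfi-1 was at 15.9 to 22.5 CPM, with 207 CPM in replicate 2, against 116 and 70.5 CPM in N2 germlines. F46H5.3 was at 20.1 to 25.4 CPM, with 410 CPM in replicate 2, against 129 and 81.2 CPM in N2 germlines. The counts of gfi-1, F46H5.3 and dhs-28 are uncertain because each lies over a gene of the opposite strand. The log2 fold changes of these 6 genes beyond pmt-2 were between -3.72 and -2.38, each at an edgeR adjusted p of 0.0342. Among the marker lists, 1 muscle gene (unc-54, -3.11 ± 0.47), 1 intestine gene (act-5, -3.03 ± 0.39) and 2 collagens (col-80, -2.47 ± 0.31, and col-160, -3.41 ± 0.53) were called lower, and 17 of 18 muscle, 5 of 7 intestine and 25 of 27 collagen genes were lower at an unadjusted p under 0.05, against 7.79% of all genes.

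The 9 genes below both N2 libraries also in replicate 2 were tsn-1, C45G9.9, egl-4 and ZK892.4, described above, with msp-152, T08B6.9, nsph-4.2, R193.2 and Y74C10AR.2. T08B6.9 (chromosome IV) was at 89.5, 57.9, 101 and 134 CPM in him-8 and at 211 and 224 CPM in N2 germlines. nsph-4.2 (chromosome IV), of a nematode-specific peptide family whose members resemble each other, was at 1070 to 1488 CPM in him-8 and at 2280 to 2888 CPM in N2 germlines. For R193.2 (chromosome X) and Y74C10AR.2 (chromosome I) replicate 2 was close to N2, at 11.4 and 15.1 CPM, while the other him-8 libraries were at 0.919 to 1.71 and 0.994 to 2.14 CPM and the N2 libraries at 14.8 to 15.4 and 16.9 to 18.9 CPM. B0207.5 (chromosome I) was at 1.53, 2.78 and 3.21 CPM, with 50.3 CPM in replicate 2, between the 65.0 and 44.7 CPM of the N2 libraries. Like Y74C10AR.2 it shares its position with genes of the opposite strand, which leaves both counts uncertain. Of the 9 genes, 2 (tsn-1 and C45G9.9) were lower in him-8 than in mes-3 sperm. Of the 48 genes above both N2 libraries in replicate 2, 5 were. Of all 8424 genes tested in sperm, 3.22% were called lower, and both sets are too small to be set against each other.

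The higher call was sax-2 (chromosome III), a large conserved protein that shapes neurites. It was at 128, 142 and 163 CPM in him-8 replicates 1, 3 and 4, at 47.04 CPM in replicate 2, and at 64.6 and 55.8 CPM in N2 germlines. Replicate 2 was thus below both N2 libraries, and the log2 fold change of 1.13 ± 0.18 (edgeR adjusted p = 0.0489) was 0.90 ± 0.43 with it. In sperm sax-2 was lower in him-8 (log2 fold change -1.93 ± 0.39, edgeR adjusted p = 0.00862).

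**Figure D5:**
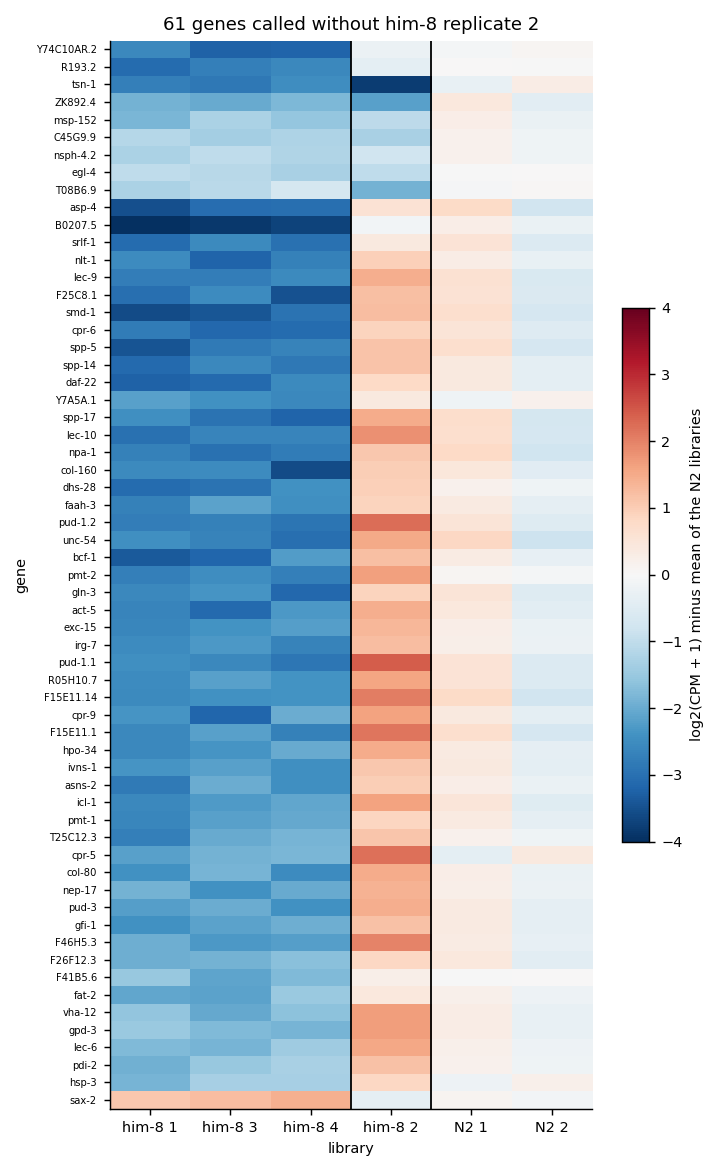
log2(CPM + 1) less the mean of the 2 N2 libraries for the 61 genes called without him-8 replicate 2, with genes in rows and libraries in columns. Replicates 1, 3 and 4 (left block) and the N2 libraries chose the genes. In replicate 2 (between the lines) 48 of the 60 lower genes are above both N2 libraries, and the top 9 are below them.

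The X chromosome, on which HIM-8 acts, took part in this second pattern. X-linked genes held 0.250%, 1.10%, 0.288% and 0.267% of gene counts in him-8 replicates 1 to 4 and 0.653% and 0.406% in N2 replicates 1 and 2. The 95% Wilson intervals, which cover counting error only, were 1.09% to 1.12% in him-8 replicate 2 and 0.283% to 0.293% in him-8 replicate 3. In N2 replicates 1 and 2 they were 0.644% to 0.663% and 0.398% to 0.414%. These libraries of the same strain did not overlap, so the intervals do not tell the strains apart. Replicate 2 was the highest and the other 3 him-8 libraries the lowest, which is the order of the muscle sums. The mean was 0.477% ± 0.418 in him-8 (SD, n = 4) and 0.530% ± 0.175 in N2 germlines (n = 2), with p = 0.800 in the two-sided exact permutation test. Without replicate 2 the him-8 mean was 0.268% ± 0.0191 (n = 3) and p was 0.200 in the same exact test, the smallest that 3 against 2 libraries allow.

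The median log2 fold change of the 293 X-linked genes tested was -0.40, and that of X-linked genes less that of autosomal genes was -0.43. Without him-8 replicate 2 the median of 215 X-linked genes was -1.77, with 18 called lower, 0 higher and 138 lower at an unadjusted p under 0.05. X-linked genes made up 30% of the 60 lower calls and 2.66% of the genes tested. Of these 18 genes, 16 were above both N2 libraries in replicate 2 and 1, R193.2, was below both. The autosomal lower calls were 17 on chromosome V, 10 on II, 6 on IV, 5 on I and 3 on III. Somatic sums moved with the X-linked share across the libraries, and their part in it was not tested.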

How the data were processed

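The authors purified total RNA, depleted ribosomal RNA, sequenced single-end libraries, aligned reads with TopHat2 to WormBase WS220 transcripts and deposited raw HTSeq counts per gene. Deposited comparisons of male with oogenic germlines and of mes-3 with its controls (log2 fold changes, adjusted p-values) and group-mean RPKM were not used. Summary lines were left out: reads outside genes were 4.79% to 12.3% and ambiguous reads 1.77% to 2.31% of counted reads. Of 45461 identifiers 44933 matched 1 gene of the WBcel235 annotation, 3 several and 525 none. Strand was not stated and the kit does not mark it. CPM are counts per 1000000 gene counts. The labels number replicates, and biological replicates are stated; p-values measure the spread between these libraries. No replicates were duplicates (chi-square per degree of freedom 11.8 to 50.1).

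Counts were tested with edgeR 4.0.16 in R 4.3.3 (quasi-likelihood F test, TMM factors, filterByExpr, Benjamini-Hochberg over all genes), on the 2 groups alone, with and without him-8 replicate 2. Standard errors and intervals were derived from the F statistic. DESeq2 1.42.0, limma 3.58.1 and further settings were alternatives. X-linked shares and marker sums were compared by two-sided exact permutation. Scripts were tested on simulated data. Named genes were him-8 and zim-1 to zim-3; the 6 genes per direction with the smallest unadjusted p among those without overlap and with a mean of at least 10 CPM in one group; without replicate 2, all calls of a direction with 6 or fewer and otherwise the 12 with the smallest adjusted p; and list extremes. Other genes were named after their values were seen. The members and lists were chosen with earlier results of these data known. The sperm comparison and the classes by sex bias were added after seeing the data.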

Additional observations from a re-analysis of the deposited data

Results flagged for a closer look

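In 19 of 50 measures, him-8 replicate 2 lay farther from the other 3 him-8 libraries than Dixon's ratio allows at 95% for 4 values. Chance gives about 1 in 20 for measures chosen without regard to the data. That rate does not apply to the genes called without replicate 2, since their choice favoured close values in the other 3 libraries. The measures also come from 1 library and are not independent. Replicate 2 was above the others in summed CPM of muscle (5294, others 425 to 449), collagen (4867, others 221 to 473), hypodermis (1765, others 53.5 to 116) and intestine genes (656, others 32.8 to 71.4), and in the X-linked share (1.10%, others 0.250% to 0.288%). It was below them in summed CPM of axis and synapsis genes (1294, others 1964 to 2086), break and crossover genes (1171, others 1744 to 1779), chromatin genes (765, others 1332.5 to 1448) and stress genes (1243, others 1495 to 1531). It was above the others in CPM of pud-1.2 (421), F46H5.3 (410), gfi-1 (207), pmt-2 (82.2), B0207.5 (50.3), irg-7 (49.2), cpr-6 (47.6), dhs-28 (40.6), Y74C10AR.2 (15.1) and R193.2 (11.4), genes that were named because they were called without it.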

How the results depend on the processing

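With all 6 libraries, where edgeR called 0 genes, DESeq2 called 24, limma with weighted libraries 4, the fit without a count filter 12, the fit of 3 male groups 4 and the fit of all libraries 5; leaving out 1 library gave 0 to 61, the 61 only without him-8 replicate 2. Without that replicate (61 calls) DESeq2 gave 269, total counts 157, no filter 541, the tag as a term 595, all libraries in 1 fit 196, an adjusted p under 0.1 207, and leaving out 1 more library 0 to 311. The 595 rest on him-8 replicate 1 and N2 replicate 1, the only libraries left of the shared tag. Where a group kept 1 library, that library was assumed to vary like the other group. Total counts shifted the median log2 fold change by 0.12 without replicate 2. The replicate block called 0 genes; libraries of the same number did not deviate together (correlations -0.077 and -0.58), so the numbers do not pair the libraries. The block and the shared-tag fit without replicate 2 were not run, since they leave no residual degrees of freedom.

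Differences of group means, him-8 minus N2, changed sign. With the shared tag alone they were 0.0231 percentage points for the X-linked share, 221 CPM for muscle and 23.6 CPM for intestine. Leaving out 1 library gave -0.261 to 0.0712 points, -1330.5 to 762 CPM for muscle, -166 to 86.4 for intestine, -377 to 287 for hypodermis and -35.2 to 13.6 for the somatic gonad. The X-linked less autosomal median ran from -1.81 to 0.22 when 1 library was left out and was 0.15 without a filter. Log2 fold changes that changed sign were those of zim-1 with the replicate block (-0.011) and the shared tag (-0.00041), zim-2 with the block (-0.31), the tag term (-0.094), the shared tag (-0.14) and without him-8 replicate 3 (-0.034; -0.034 to 0.34 when 1 library was left out), zim-3 with the block (-0.26) and without N2 replicate 1 (-0.28) or him-8 replicate 3 (-0.11) or 4 (-0.01; range -0.28 to 0.46), lab-1 without N2 replicate 1 (0.23; range -0.79 to 0.23), and pud-1.2 (0.23) and F46H5.3 (0.15) with him-8 replicate 2 in the fit. Over named genes and fits, 793 values kept their direction and side of the threshold, 86 lost a call, 33 gained one and 13 changed sign. The cause was not tested. Depth (1849544 to 5030360 counts) and 2 N2 libraries limit what could be called.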

Other observations

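B0207.5 and Y74C10AR.2, which were near N2 levels in him-8 replicate 2 and low in the other him-8 male germlines, also varied among mes-3 male germlines, at 92.9, 1.33 and 1.60 CPM for B0207.5 and 27.4, 0 and 3.30 CPM for Y74C10AR.2. In him-8 sperm they were at 94.1, 129 and 308 CPM and at 11.7, 38.1 and 154 CPM, against 75.4, 74.3 and 29.3 CPM and 47.4, 14.1 and 12.1 CPM in mes-3 sperm. B0207.5 was higher in him-8 than in mes-3 sperm (log2 fold change 1.83 ± 0.41, edgeR adjusted p = 0.0128), and Y74C10AR.2 was not called (1.70 ± 0.72, adjusted p = 0.166). Both overlap genes on the other strand, so their counts are uncertain.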
